A study of Glycyrrhiza uralensis with 12 samples.

Results

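The loci described here are the 1386 rows of the gene table of *Glycyrrhiza uralensis* seedlings whose identifier starts with ONT, out of 29436 rows in all. They were assembled by the authors from full-length cDNA reads, and their identifiers carry no name from the gene annotation of the genome, in contrast to the other 28050 rows (the annotated genes). The seedlings were 45 days old and came from 4 treatments, with 3 libraries each and 12 in all. CK plants received distilled water, and CK + G2 plants received a suspension of the bacterium *Bacillus cereus* G2 without salt. S plants were stressed with NaCl at 75 mM, and S + G2 plants were given both the NaCl and the bacterium. The sample records write G2 with the letter B. All plants grew from seed in sterilized sand, whole seedlings were ground and grouped by weight, and the 3 libraries of a treatment are described as biological replicates. The plants ground for a library were pooled, and G2 was added to the water of the pots, so its presence in each plant is not in these data.

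Long-read cDNA sequencing reads a transcript from end to end, so reads that pile up where the annotation lists no gene can be joined into a new locus with its own isoforms. Such loci are known in plants to include protein-coding genes that gene prediction missed, long non-coding RNAs, transcribed transposons and fragments of neighbouring genes. The files give no name, sequence or function for any of them, so which of these kinds a given ONT locus belongs to is not stated here, and roles are left out. Levels are counts per 1000000 mapped reads (CPM). A single read was worth 0.255 to 0.303 CPM in libraries of 3303591 to 3929023 reads, and a locus without reads can still have a true level of up to 3 reads, or 0.764 to 0.908 CPM. Levels in CPM are not divided by transcript length, so they are compared between treatments for a locus, and between loci only as shares of the reads.

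Most ONT loci were transcribed at a low to middle level in all treatments. Their median over the 12 libraries was 3.96 CPM, with a middle range (25th to 75th percentile) of 1.82 to 9.19 CPM, whereas the annotated genes had a median of 6.81 CPM and a wider middle range of 0.731 to 24.0 CPM. Loci with a read in every library numbered 1020, or 73.6%, close to the 71.5% of annotated genes. At least 1 CPM in at least 3 of the 12 libraries, the filter for the tests, was reached by 1266 loci (91.3%, against 76.6% of annotated genes). The other 120 loci had mean levels from 0.0216 to 2.93 CPM, with a median of 0.337 CPM. The 43 loci just inside the filter, with exactly 3 libraries at 1 CPM, had a median level of 0.791 CPM, and the 35 just outside it, with exactly 2, had 0.677 CPM. Fewer ONT loci than annotated genes lay under 1 CPM (12.6% and 27.5%) and fewer lay at 100 CPM or more (2.02% and 5.94%). An ONT locus exists only because reads were assembled into it, while an annotated gene comes from the genome annotation. The small share under 1 CPM and the large share past the filter thus follow at least in part from how the sets were made.

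**Figure D1:**
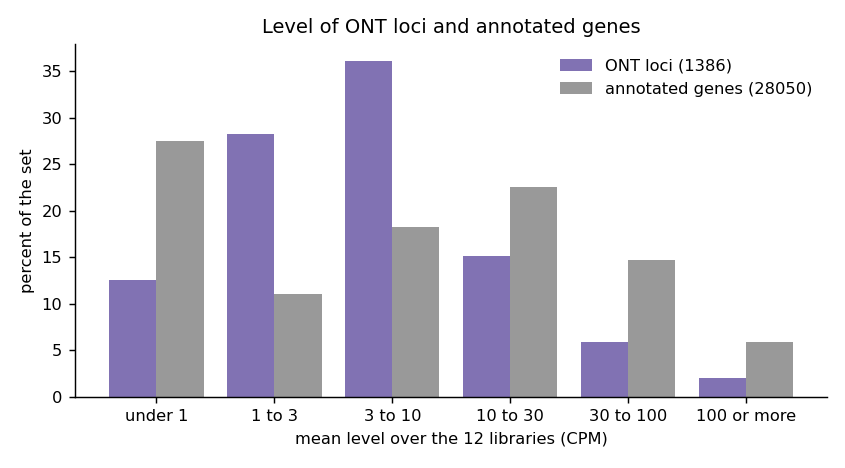
Percent of the 1386 ONT loci and of the 28050 annotated genes (vertical axis) by mean level in CPM over the 12 libraries (horizontal axis, 6 ranges). The ONT loci peak at 3 to 10 CPM with 36.1%, while the annotated genes have their largest bar under 1 CPM with 27.5%.

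A few loci carried much of the reads. The 10 most abundant held 29.7% of the reads on ONT loci, and the most abundant, ONT.8283, held 8.25%. ONT.8283 ranked 45 and ONT.9417 ranked 70 among all rows. ONT.8283 had 2366, 1651 and 1456 CPM in CK, 1867, 1757 and 2221 CPM in CK + G2, 1623, 1710 and 1231 CPM in S, and 1465, 1062 and 1363 CPM in S + G2. The levels of S and CK overlapped, while all 3 S + G2 libraries lay under the 3 CK + G2 libraries, and neither comparison passed the test (adjusted p = 0.697 and 0.542). ONT.9417 ranged from 987 to 1576 CPM, ONT.15563 from 476 to 708 CPM and ONT.489 from 372 to 591 CPM over the 12 libraries, with no call in any of the 4 pairwise comparisons. ONT.17812 spread more widely. It had 576 to 753 CPM in CK and 284 to 556 CPM in CK + G2, but 189, 373 and 664 CPM in S and 101, 186 and 597 CPM in S + G2, so that replicate 3 of each salt treatment stood as high as the control.

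The positions of the ONT loci are not in the files, so they were read from the order of the locus numbers. The isoform table holds 34380 assembled isoforms at 16160 locus numbers up to 17855, and these isoforms took 69.3% to 70.5% of the reads of each library. Of these 16160 loci, 1386 (8.58%) have a row of their own in the gene table, and 14015 others could be linked to an annotated gene because the reads of their isoforms equalled, in all 12 libraries, the reads of that gene that were not on its annotated transcript. Along the numbers of the linked loci the scaffold number never fell, and within a scaffold the gene start rose in 99.6% of steps. Of 9845 linked loci with both numbered neighbours on 1 scaffold, all were on that scaffold and 99.1% started between them. In the same way 747 ONT loci (53.9%) were placed between 2 linked genes on 474 scaffolds of the deposited annotation, and the other 639 lie between genes of different scaffolds or at an end. A placement is a bracket inferred here, not a mapped position, and exon, intron or UTR could not be assigned.

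ONT loci made up a larger share of the assembled loci at the high locus numbers, where a scaffold held few linked genes. Among the assembled loci numbered 1 to 3000, which span 63 scaffolds with 37.2 linked genes each on average, 6.31% were ONT loci. The share was 9.08% for numbers 12001 to 15000 and 16.0% for numbers 15001 to 18000, which span 1343 scaffolds with 1.60 linked genes each. Of the 420 ONT loci in this last range 12.4% could be placed, against 95.8% of the 167 in the first. The median level was 3.12 CPM in the first range and 4.16 CPM in the last. For the placed loci the gap between the flanking genes had a median of 16484 bp (middle range 7388 to 29224 bp), compared with 4819 bp between linked genes with consecutive numbers (9479 pairs). Linked genes with consecutive numbers have no assembled locus between them, whereas the flanks of a placed locus enclose at least that locus. The wider gap therefore follows at least in part from this definition. No annotated gene lay between the flanks for 221 loci, at least 1 did for 526, and for 3 loci the flanks touched or overlapped.

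Most ONT loci had a single isoform. The isoform table lists 2082 isoforms for them, with 1024 loci at 1 isoform, 218 at 2, 68 at 3 and 76 at 4 or more. Loci with 1 isoform had a median level of 2.94 CPM, those with at least 2 had 11.4 CPM and those with at least 4 had 29.8 CPM, so the number of isoforms and the depth behind a locus moved together. Among the 362 loci with at least 2 isoforms the leading one took a median of 74.7% of the reads, and in 43 it took less than 50%. For 31 loci the isoforms sum to more reads than the locus row, and in 28 of these the excess equals reads of an annotated gene, so their isoform counts are uncertain. These 31 include ONT.9754 with 19 isoforms and ONT.13542 with 13.

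Isoform shares of the 5 most abundant loci were steady in 2 and differed between libraries in the other 3. In ONT.15563 the leading isoform took 65.1% to 71.1% of the reads and in ONT.489 it took 70.8% to 75.3%, in all 12 libraries. In ONT.8283 the isoform numbered 6 was under 1% in 7 libraries (0.223% to 0.520%) and between 7.86% and 16.4% in the other 5, which were replicate 1 of CK, CK + G2 and S, replicate 2 of S and replicate 3 of S + G2. The high libraries of this isoform thus came from all 4 treatments. In ONT.9417 the isoform numbered 2 took 31.1%, 15.3% and 17.6% in CK, 20.2%, 21.5% and 40.4% in CK + G2, 2.73%, 3.98% and 2.91% in S, and 6.05%, 23.3% and 3.06% in S + G2. The 3 S libraries lay under every library without salt, but replicate 2 of S + G2 lay among them. In ONT.17812, whose levels are given above, the isoform numbered 1 took 62.3%, 78.3% and 72.1% in CK, 94.1%, 21.8% and 71.1% in CK + G2, 28.7%, 44.7% and 60.1% in S, and 16.4%, 32.6% and 51.7% in S + G2. Every library without salt but replicate 2 of CK + G2 lay above all salt libraries. Its isoform numbered 2 took 28.4% ± 7.89 in CK, 36.7% ± 36.8 in CK + G2, 54.8% ± 15.9 in S and 65.5% ± 17.7 in S + G2 (SD over 3 libraries). These isoforms were singled out after their values were seen, so no test is given.

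ONT.6020 had 13 isoforms and was placed on Scaffold00164, in the 3093 bp between Glyur000164s00014476, which ends at 44538, and Glyur000164s00014477, which starts at 47632. Its leading isoform took 29.1% ± 5.12 of the reads in CK, 27.8% ± 1.80 in CK + G2, 26.6% ± 1.06 under salt alone and 29.0% ± 1.11 with salt and G2 (SD over 3 libraries). The locus itself had 115 to 149 CPM in CK, 80.5 to 107 CPM in CK + G2, 42.9 to 131 CPM in S and 28.5 to 158 CPM in S + G2, and the ranges overlapped in both salt comparisons (adjusted p = 0.279 without G2 and 0.7102 with G2).

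ONT loci varied more between the libraries of a treatment than annotated genes did at the same level. For the 1266 loci tested the SD within treatments on the log2(CPM + 1) scale had a median of 0.48, against 0.32 for 21485 annotated genes. At a mean level of 30 CPM or more the medians were 0.39 and 0.23 (109 loci and 5795 genes), and under 3 CPM they were 0.55 and 0.45 (446 loci and 4244 genes). Loci without a read in at least 1 library and with 5 CPM or more in another numbered 127, or 10.03% of those tested, compared with 1.01% of annotated genes, a threshold chosen after the values had been seen. In 75 loci (5.92%) both occurred within 1 treatment, against 0.344% of annotated genes. These are descriptions over loci, which are not independent replicates, and no test was made of them.

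**Figure D2:**
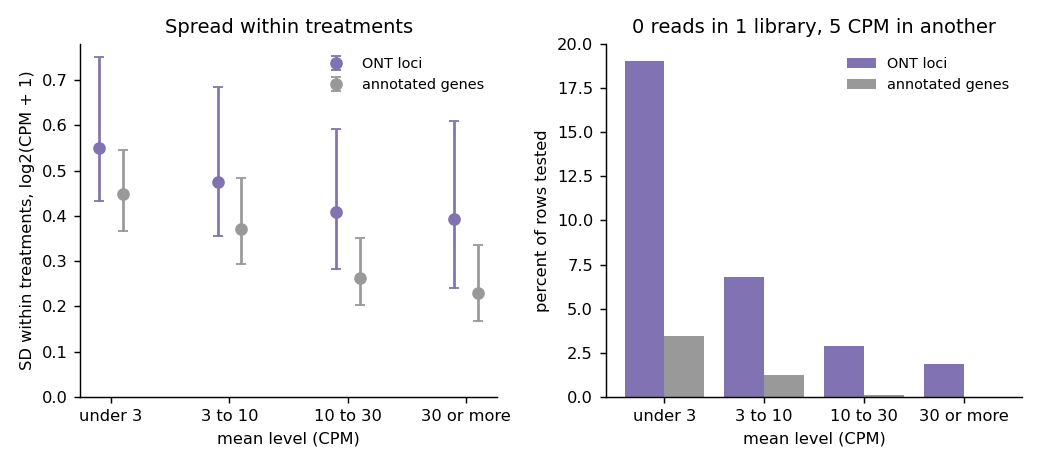
Left, the SD within treatments of log2(CPM + 1) for ONT loci and annotated genes in 4 ranges of mean level, with points at the median and bars over the middle range; right, the percent of rows with no read in 1 library and 5 CPM or more in another. The ONT loci lie higher in all 4 ranges, from 19.1% against 3.46% under 3 CPM to 1.83% against 0 at 30 CPM or more.

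The 4 with the highest mean level of the 75 show how such loci look. ONT.13151 had 26.0, 73.9 and 69.0 CPM in CK, 98.4, 0.263 and 1.96 CPM in CK + G2, 126, 0 and 117 CPM in S, and 0.266, 0.528 and 0.259 CPM in S + G2. It was therefore high in 6 libraries of 3 treatments and at a few reads or none in the other 6. ONT.16969 was without a read in replicate 1 of CK + G2 alone, where the other CK + G2 libraries had 52.6 and 49.6 CPM, and it had 9.52, 31.3 and 28.8 CPM in CK, 104, 4.50 and 52.7 CPM in S, and 19.4, 67.5 and 48.4 CPM in S + G2. ONT.16133 was read in 5 libraries only, with 54.0 and 38.4 CPM in replicates 2 and 3 of CK, 42.5 CPM in replicate 2 of S, and 43.7 and 10.3 CPM in replicates 1 and 2 of S + G2. ONT.13311 had 16.5, 0.277 and 0 CPM in CK, 23.8, 40.8 and 0.280 CPM in CK + G2, 12.8, 26.4 and 16.5 CPM in S, and 40.2, 8.97 and 0.259 CPM in S + G2, so only S had no library near 0. ONT.10667 and ONT.15760, next in level, were each at 0 in a single library. ONT.9639, which follows them and was placed on Scaffold00413 between Glyur000413s00015477 and Glyur000413s00015478 (a gap of 2104 bp), was at 0 in 5 libraries. It had 5.92, 0 and 0 CPM in CK, 21.1, 0 and 16.3 CPM in CK + G2, 12.5, 9.28 and 12.7 CPM in S, and 0, 0 and 31.8 CPM in S + G2. Because of such loci a difference between 3 libraries and 3 others is read below together with every library's value.

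Over all ONT loci tested the libraries of a treatment were on average slightly closer to each other than to those of other treatments. The root mean square difference of log2(CPM + 1) averaged 0.91 over the 12 pairs within treatments and 0.99 over the 54 pairs between them, and for annotated genes it averaged 0.57 and 0.63. For 8 of the 12 libraries the nearest one belonged to their own treatment, although most of the other libraries were of other treatments. Replicates 2 and 3 of CK were the closest pair, at 0.57 over the ONT loci, where the nearest library of every other one was at 0.73 or more. They still differed beyond counting noise, with a chi-square per locus of 4.37 over 846 loci with at least 20 reads in the pair (1 is the value for counting noise alone). Replicate 1 of CK was nearest to replicate 2 of CK + G2. Since the pair is 2 of the 3 control libraries, each comparison with CK below is given with single libraries left out.

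The share of a library's reads on ONT loci was lower under salt. It was 2.18%, 2.19% and 2.07% in CK, 1.96%, 2.07% and 2.28% in CK + G2, 1.93%, 1.84% and 1.92% in S, and 1.86%, 1.72% and 1.92% in S + G2. All 6 salt libraries lay under all 6 libraries without salt. The means were 1.87% ± 0.0821 and 2.13% ± 0.114 (SD, n = 6 each), a difference of -0.26 percentage points, with p = 0.00216 in a two-sided exact permutation test, the smallest that 924 arrangements can give. Without the most abundant locus the difference was -0.21 points (exact permutation p = 0.00649) and without the 10 most abundant -0.14 points (exact permutation p = 0.00433). In the pairwise comparisons the difference was -0.25 points for S vs. CK and -0.27 points for S + G2 vs. CK + G2, each without overlap, where 3 libraries against 3 cannot give an exact permutation p below 0.1. In ground seedlings a lower share can come from fewer cells of a type or from less RNA of these loci per cell. As a share of all reads it also falls when other rows take more of them. These cannot be told apart.

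With salt the middle of the ONT loci was lower, as this share was. The treatment mean of S + G2 was above that of S for this middle level, but below it for the share. The median over the 1386 loci was 3.37 to 3.56 CPM in S, 3.62 to 3.73 CPM in S + G2, and 3.83 to 4.20 CPM in the 6 libraries without salt, again without overlap (exact permutation p = 0.00216). Over the loci tested the median log2 fold change was -0.11 for S vs. CK and -0.12 for S + G2 vs. CK + G2, beside -0.05 and -0.09 over all 22751 rows tested, so the rows in general also lay slightly under zero. With TMM scaling, which centres the rows, the medians were -0.07 and -0.04 for ONT loci and 0.00 in both cases for all rows. Whether the lower share follows from that general shift was not tested.

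The number of ONT loci with at least 1 read was 1248 to 1272 with salt and 1260 to 1295 without, with means of 1261 ± 8.76 and 1278 ± 12.9 (SD, n = 6 each). The groups overlapped, and the difference of -16.7 loci had p = 0.0260 in a two-sided exact permutation test. The p-value was 0.0519 without CK replicate 1, CK replicate 2 or S + G2 replicate 2, 0.0541 without S + G2 replicate 1, and 0.0556 with arrangements within replicate numbers (exact permutation). At the depth of the shallowest library the difference was -16.2 loci (exact permutation p = 0.0303). Counting only loci with at least 3 reads it was -23.8 loci (exact permutation p = 0.00866). Annotated genes with at least 1 read numbered 23587 to 23749 with salt and 23454 to 23821 without, and no test was made of them. The share of reads on ONT loci did not move detectably with G2, with means of 1.97% ± 0.192 with G2 and 2.02% ± 0.146 without (SD, n = 6 each, difference -0.05 points, two-sided exact permutation p = 0.597).

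**Figure D3:**
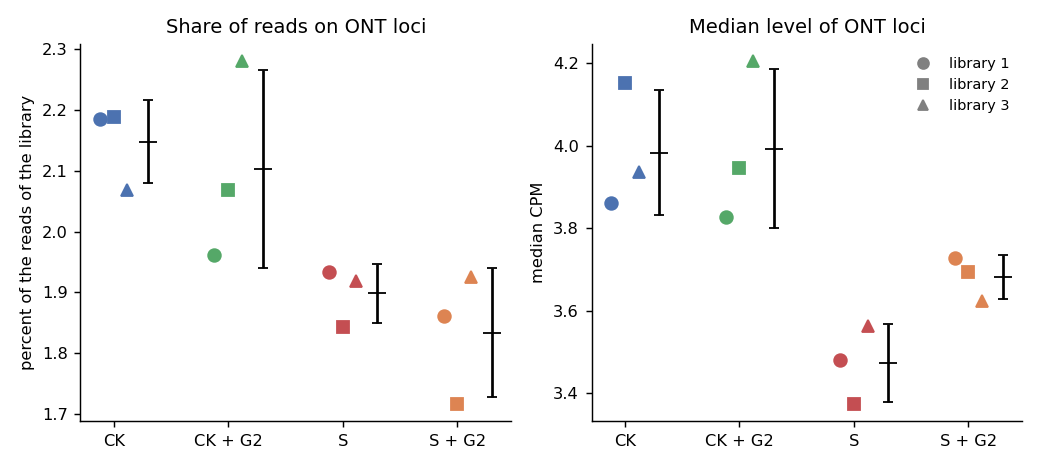
Percent of reads on ONT loci (left) and median CPM of the 1386 ONT loci (right) in each of the 12 libraries by treatment, with the mean and SD (n = 3) as a bar beside the points; the axes do not start at 0. In both panels all 6 salt libraries lie under all 6 libraries without salt.

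Salt without G2 was the comparison with the most calls among the pairwise ones. In S vs. CK, 32 ONT loci (2.53%) passed an adjusted p of 0.05, where 1.80% of all rows tested did. Of these, 29 were lower in S (2.29%, background 1.49%) and 3 were higher (0.237%, background 0.312%). At a looser criterion, which asks for an unadjusted p below 0.05 and a change of 1.5-fold or more, 150 loci were lower (11.8%, background 7.02%) and 64 higher (5.06%, background 3.66%). In the 4 ranges of level the share past this looser criterion was 15.2%, 16.8%, 18.1% and 22.0% from the lowest range to the highest, against 9.89%, 12.7%, 9.44% and 10.8% of all rows, and the spread of ONT loci within treatments, described above, was larger in each range too. Without CK replicate 3, 1 locus passed the adjusted threshold (0.0790%, against 0.664% of all rows), and the counts were 5 without CK replicate 2 (0.395%, all rows 1.04%), 13 without S replicate 1 (1.03%, all rows 1.15%) and 10 without either S replicate 2 or S replicate 3 (0.790%, all rows 0.927% and 0.963%). With each of these libraries left out the share of ONT loci called was thus below that of all rows, and without CK replicate 1 it was above it (2.37% and 1.40%). edgeR made 17 calls, 15 of them lower (1.97% in all, near the 1.86% of all rows), and DESeq2 made 57, 42 of them lower (4.51%, all rows 3.01%).

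The 3 loci that were higher in S had different profiles with G2. ONT.14854 had 1.29, 2.49 and 3.03 CPM in CK and 13.1, 44.1 and 8.65 CPM in S, and the log2 fold change on the log2(CPM + 1) scale was 2.52 ± 0.50 (SE, adjusted p = 0.0398, limma). With G2 it had 1.09, 0.789 and 0.841 CPM in CK + G2 and 44.5, 24.0 and 37.5 CPM in S + G2, or a log2 fold change of 4.21 ± 0.28 (SE, adjusted p = 0.00146, limma). All 6 salt libraries lay above all 6 others, by a factor of at least 2.86. ONT.14854 has 1 isoform and was placed on Scaffold01359, in the 3676 bp between Glyur001359s00026910, which ends at 11456, and Glyur001359s00026912, which starts at 15133, with no annotated gene between. Those genes had log2 fold changes of -0.08 and -0.57 in S vs. CK (limma adjusted p = 0.931 and 0.211). The call for S vs. CK was lost without CK replicate 1, 2 or 3 or S replicate 1 or 2 (adjusted p up to 0.108), whereas that for S + G2 vs. CK + G2 held with each library left out (adjusted p up to 0.0249).

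ONT.9270 was nearly silent in the control alone. It had 0.515, 0.554 and 0 CPM in CK, 79.0, 27.4 and 34.5 CPM in CK + G2, 30.5, 4.50 and 40.2 CPM in S, and 10.4, 52.8 and 43.5 CPM in S + G2, so the CK libraries lay under all 9 others. Its log2 fold change was 3.85 ± 0.64 in S vs. CK (SE, adjusted p = 0.0180, limma) and 5.02 ± 0.39 in CK + G2 vs. CK (SE, adjusted p = 0.00587, limma), both against the same 3 CK libraries. Leaving out CK replicate 2 or 3 took both calls away (adjusted p up to 0.0782), as did S replicate 1 or 3 for S vs. CK, and edgeR gave an adjusted p of 0.0586 for CK + G2 vs. CK. Between S + G2 and CK + G2 the log2 fold change was -0.52, and the libraries overlapped (adjusted p = 0.784).

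ONT.17809 had 4.38, 1.94 and 3.63 CPM in CK, 10.4, 8.42 and 5.89 CPM in CK + G2, 9.57, 13.2 and 13.0 CPM in S, and 12.2, 11.3 and 12.9 CPM in S + G2. It rose in S vs. CK with a log2 fold change of 1.61 ± 0.29 (SE, adjusted p = 0.0257, limma), and with G2 the groups did not overlap at a log2 fold change of 0.54 (adjusted p = 0.520). The call was lost without CK replicate 2 or 3 or S replicate 2 or 3 (adjusted p up to 0.0875).

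The 29 loci that were lower in S spanned mean levels in CK from 2.02 to 479 CPM and log2 fold changes from -4.44 to -0.78, with a median of -1.44. ONT.1691 changed most. It had 3.604, 100.5 and 53.9 CPM in CK, 0.273, 1.32 and 1.12 CPM in CK + G2, 0.290, 0.562 and 0.255 CPM in S, and 0.266, 0.792 and 0 CPM in S + G2. The 3 CK libraries lay above the other 9, but replicates 2 and 3 far more so than replicate 1, and those are the pair of libraries closest to each other. Its log2 fold change was -4.44 ± 0.90 (SE, adjusted p = 0.0421, limma), lost without CK replicate 2 or 3 or any 1 of the S libraries (adjusted p up to 0.140). It was placed on Scaffold00030 in the wide gap of 105346 bp between Glyur000030s00002331 and Glyur000030s00002345, which holds 10 annotated genes.

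ONT.15819 had 6.18, 26.9 and 41.8 CPM in CK, 0.870, 3.66 and 1.27 CPM in S, 1.37, 1.84 and 6.73 CPM in CK + G2, and 1.60, 1.58 and 2.07 CPM in S + G2. Its log2 fold change in S vs. CK was -2.92 ± 0.60 (SE, adjusted p = 0.0436, limma), and again CK replicate 1 was the lowest control. ONT.10716 had 10.04, 22.1 and 12.4 CPM in CK, 4.06, 2.53 and 2.29 CPM in S, 3.83, 1.32 and 12.1 CPM in CK + G2, and 5.86, 7.39 and 1.29 CPM in S + G2. Its log2 fold change was -1.95 ± 0.32 (SE, adjusted p = 0.0170, limma), and with G2 the libraries overlapped. ONT.2710, on Scaffold00055 between Glyur000055s00004527 and Glyur000055s00004533, had even controls of 4.89, 4.43 and 4.54 CPM and 1.16, 0.281 and 0 CPM in S (log2 fold change -2.0 ± 0.34 SE, adjusted p = 0.0208, limma). With G2 it overlapped, at 0.820 to 4.49 CPM in CK + G2 and 0.259 to 4.49 CPM in S + G2.

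Several of these loci were as high in some S + G2 libraries as in CK. ONT.17028 had 2.57, 9.69 and 10.3 CPM in CK and 0, 0.281 and 1.02 CPM in S, but 7.19, 8.97 and 0 CPM in S + G2 (S vs. CK log2 fold change -2.46 ± 0.47 SE, adjusted p = 0.0350, limma). ONT.17447 had 5.15, 11.4 and 14.8 CPM in CK and 2.03, 1.41 and 2.04 CPM in S, and 2.93, 1.58 and 63.1 CPM in S + G2, where replicate 3 alone was high. ONT.16320, placed on Scaffold02268 between Glyur002268s00033545 and Glyur002268s00033547, had 5.41, 3.599 and 3.03 CPM in CK, 0.580, 0 and 0.509 CPM in S, and 11.7, 1.85 and 0.259 CPM in S + G2. In each case the S + G2 libraries of 1 locus differed by more than 10-fold or ran down to 0, and none of the 3 loci passed the test of S + G2 vs. S.

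ONT.8065 had 10.04, 7.20 and 6.05 CPM in CK and 0.580, 1.41 and 3.05 CPM in S, with 4.10, 11.8 and 11.2 CPM in CK + G2 and 4.53, 3.43 and 2.85 CPM in S + G2. The log2 fold change was -1.79 ± 0.37 without G2 (SE, adjusted p = 0.0461, limma) and -1.03 with G2 (adjusted p = 0.453), where replicate 1 of CK + G2 lay under replicate 1 of S + G2. ONT.17317 and ONT.16859 had no read in any S library. ONT.17317 had 1.29, 5.54 and 2.72 CPM in CK, so it was at least 3.85-fold lower in S against a floor of 3 reads per library, and ONT.16859 had 1.54, 1.66 and 4.24 CPM in CK, so it was at least 3.0-fold lower. ONT.16859 also had no read in S + G2, and only 0.273, 1.05 and 0 CPM in CK + G2. For the 13 loci that the rule named for S vs. CK by their calls, every call was lost with at least 4 of the 6 single libraries left out, always including CK replicates 2 and 3, with a highest adjusted p between 0.0604 and 0.158.

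Of the 32 called loci, 25 had 1 isoform (78.1%, against 72.4% of the loci tested). The 13 that could be placed were each on a scaffold of their own, and the positions of the other 19 are not known. None of the 26 genes flanking those 13 passed the adjusted threshold in S vs. CK, where 1.80% of all rows tested did. The looser criterion was passed by 6 of the 26, where 10.7% of all rows passed it. Of these 6 genes 5 went in the direction of the locus, and both flanks of ONT.2250 were among the 6. Over all placed loci the log2 fold change of the locus and of its left and right gene had Pearson's r of 0.09 (667 pairs) and 0.09 (663 pairs), and linked genes next to each other had 0.03 (9423 pairs). The points share their libraries, so this is a description across loci.

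Further loci passed the looser criterion in S vs. CK without overlap but not the adjusted threshold. Among the highest was ONT.8465 (Scaffold00313, between Glyur000313s00016916 and Glyur000313s00016919), with 1.29, 1.38 and 1.51 CPM in CK and 21.2, 2.25 and 28.8 CPM in S, and with G2 0.820, 0.52605 and 1.12 CPM without salt and 4.26, 2.64 and 2.07 CPM with it. Its libraries did not overlap in either salt comparison. ONT.17736 had 13.6 to 31.3 CPM in CK and 204, 112 and 37.4 CPM in S, but replicate 3 of CK + G2 stood at 102.3 CPM. ONT.11789 was at 1 read in each CK library and at 17.1, 0.562 and 9.93 CPM in S. On the lower side ONT.206 (Scaffold00003, between Glyur000003s00001180 and Glyur000003s00001181, a gap of 3936 bp) had 0.257, 6.09 and 6.05 CPM in CK and no read in S, and then 11.98, 9.23 and 0 CPM in S + G2. ONT.15552 had 0.257, 15.2 and 6.66 CPM in CK and no read in S, and outside CK it was read in 1 CK + G2 library (14.7 CPM) and 1 S + G2 library (16.6 CPM). ONT.6494 had 47.4, 8.30 and 13.6 CPM in CK and 2.90, 3.37 and 3.82 CPM in S.

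Salt in the presence of G2 gave few calls. In S + G2 vs. CK + G2, 2 ONT loci passed the adjusted threshold, where 0.0220% of all rows tested did, namely ONT.14854 (above) and ONT.16117. At the looser criterion 102 loci were lower (8.06%, background 5.14%) and 53 higher (4.19%, background 2.61%), and TMM scaling moved this split to 80 lower and 69 higher (6.32% and 5.45%), where 819 of all 22751 rows were lower and 820 higher. ONT.16117 had 8.20, 4.73 and 10.1 CPM in CK + G2 and no read in the 3 S + G2 libraries, so it was at least 9.73-fold lower against a floor of 3 reads per library (adjusted p = 0.0393, limma). Without salt and G2 it had 0, 5.54 and 2.72 CPM, and in S it had 1.74, 7.87 and 0 CPM, so single libraries of these treatments were also at 0. The call was lost without any 1 of the CK + G2 libraries or without S + G2 replicate 1 or 2 (adjusted p up to 0.272), and edgeR, TMM scaling, a mean of at least 10 reads, all 12 libraries in the fit and the replicate number as a block each left ONT.14854 as the only call.

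ONT.5461, on Scaffold00140 between Glyur000140s00011475 and Glyur000140s00011480, was higher in each S + G2 library than in any CK + G2 library. It had 19.4, 4.47 and 8.13 CPM in CK + G2 and 58.6, 162 and 414 CPM in S + G2, where the log2 fold change of 3.98 did not pass (adjusted p = 0.201). In CK it had 4.38, 255 and 122 CPM, so CK replicates 2 and 3 lay within the range of S + G2, and in S it had 10.7, 24.5 and 13.0 CPM. ONT.12732 had 8.48, 7.36 and 9.53 CPM in CK + G2 and 0.266, 0 and 1.29 CPM in S + G2 (log2 fold change -2.72, adjusted p = 0.0797). ONT.15163, on Scaffold01507 between Glyur001507s00032439 and Glyur001507s00032445, had 7.66, 4.47 and 7.29 CPM in CK + G2 and 0, 0 and 1.04 CPM in S + G2 (log2 fold change -2.53, adjusted p = 0.136). ONT.7323 had 3.28, 5.52 and 35.3 CPM in CK + G2 and 0.264 to 1.29 CPM in S + G2, where replicate 3 of CK + G2 was the only library above 6 CPM of all 12.

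The 29 loci that were lower in S vs. CK can be set beside the salt comparison with G2, which shares no library with it. Of these, 24 had a negative log2 fold change with G2, where 61.1% of all rows tested did, and the median was -0.45. An unadjusted p under 0.05 was found for 9 of the 29 (all rows 9.86%), and 8 did not overlap (all rows 14.96%). Of the 3 higher loci 2 were also higher with G2. The salt by G2 interaction, which tests the difference of the 2 salt comparisons, passed the adjusted threshold for 0 ONT loci in limma, where 0.00440% of all rows did, with 126 loci at an unadjusted p under 0.05 (9.95%, all rows 6.72%). Among the 29 loci lower in S, 17 had an unadjusted interaction p under 0.05, but they were chosen by S vs. CK, whose libraries are part of the interaction. edgeR made 0 calls and DESeq2 made 6 (0.475%, all rows 0.224%). No single locus passed the adjusted threshold for this difference in limma or edgeR.

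**Figure D4:**
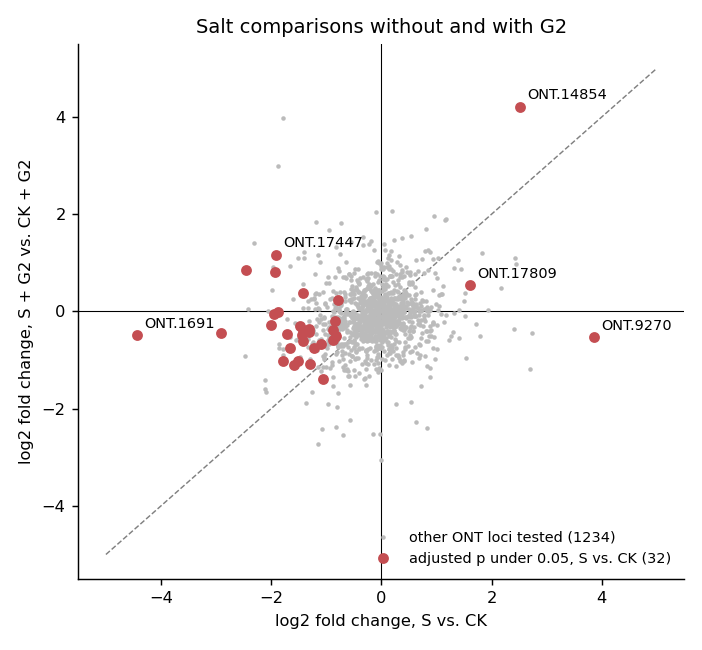
Log2 fold change on the log2(CPM + 1) scale of the 1266 ONT loci tested in S vs. CK (horizontal axis) and in S + G2 vs. CK + G2 (vertical axis), with the 32 loci at an adjusted p under 0.05 in S vs. CK in red and equal values on the dashed line. Of the 29 red points on the left, 24 lie under 0 on the vertical axis, and ONT.14854 lies at 2.52 and 4.21.

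Over all 12 libraries the salt comparison called 32 ONT loci (2.53%, background 2.30%), of which 27 were lower (2.13%, background 1.83%) and 5 higher (0.395%, background 0.470%), and 17 of the 32 were also called in S vs. CK, whose libraries it contains. Without overlap between the 6 salt and the 6 other libraries were 28 loci, 21 lower and 7 higher, or 2.21% of those tested, where 1.67% of all rows did not overlap. The count of calls was 15 without CK + G2 replicate 3, S + G2 replicate 1 or S + G2 replicate 2, 17 without CK replicate 2, 18 without S replicate 1, 19 without S replicate 2, 21 without CK replicate 1 or CK replicate 3, 54 without S + G2 replicate 3 and 56 without CK + G2 replicate 1. The calls among all 22751 rows moved as well. In the same order of libraries they were 172, 256, 288, 284, 229, 214, 187, 360, 775 and 1057. The share of ONT loci called was below that of all rows without CK + G2 replicate 1 (4.42% and 4.65%) and without S + G2 replicate 2 (1.18% and 1.27%). edgeR made 20 calls, 14 of them lower (1.95%, all rows 1.88%), and TMM scaling 20, 15 of them lower (1.58%, all rows 1.52%), both near the share of all rows. DESeq2 made 65 calls, 47 of them lower (5.14%, all rows 4.01%).

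The loci higher under salt in this comparison included ONT.14854, with 8.65 to 44.5 CPM in the salt libraries (median 30.8) and 0.789 to 3.03 CPM in the others (median 1.19), and a log2 fold change of 3.37 ± 0.32 (SE, adjusted p = 0.00198, limma). ONT.17151 had 32.1 to 80.5 CPM with salt (median 38.9) and 7.85 to 25.7 CPM without (median 16.6), also without overlap (1.53 ± 0.29 SE, adjusted p = 0.0221, limma). ONT.15726 had 19.2 to 36.7 CPM with salt and 7.66 to 19.6 CPM without, where CK replicate 1 overlapped the lowest salt library (1.06 ± 0.19 SE, adjusted p = 0.0157, limma). ONT.17809 had 9.57 to 13.2 CPM with salt and 1.94 to 10.4 CPM without (1.08 ± 0.19 SE, adjusted p = 0.0144, limma). The calls of ONT.14854, ONT.15726 and ONT.17809 held with each library left out and in the other alternatives run, while ONT.17151 lost its call without CK + G2 replicate 3 or S replicate 2 (adjusted p up to 0.0544).

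On the lower side ONT.13322 had 0.264 to 2.81 CPM with salt (median 1.40) and 3.599 to 9.25 CPM without (median 4.58), without overlap and with 3 isoforms (log2 fold change -1.44 ± 0.29 SE, adjusted p = 0.0273, limma). ONT.8065 had 0.580 to 4.53 CPM with salt and 4.10 to 11.8 CPM without (-1.41 ± 0.28 SE, adjusted p = 0.0259, limma). ONT.12732 had 0 to 4.33 CPM with salt and 1.66 to 9.53 CPM without (-1.94 ± 0.38 SE, adjusted p = 0.0245, limma), where S replicate 3 at 4.33 CPM stood apart from the other 5 salt libraries, which reached 1.29 CPM. ONT.1691 was at 0.792 CPM or less in the salt libraries, but only CK was above 1.32 CPM among the others. Each of these 4 calls was lost with 6 to 10 of the 12 single libraries left out, CK + G2 replicate 3 and S replicate 1 among them for all 4 (adjusted p up to 0.101).

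G2 under salt gave no call. In S + G2 vs. S, 0 ONT loci passed the adjusted threshold in limma, where 0.00440% of all rows tested did, and 101 had an unadjusted p under 0.05 (7.98%, all rows 5.93%). edgeR made 0 calls and DESeq2 made 5 (0.397%, all rows 0.145%). At the looser criterion 53 loci were higher (4.19%, background 2.05%) and 39 lower (3.08%, background 1.96%). ONT.4253, with 5 isoforms on Scaffold00098 between Glyur000098s00008015 and Glyur000098s00008017, had 236, 184 and 128 CPM in S and 28.0, 39.3 and 60.3 CPM in S + G2 (log2 fold change -2.10, 95% interval -2.78 to -1.42, adjusted p = 0.342). In CK it had 71.7 to 138 CPM and in CK + G2 165, 40.5 and 169 CPM, so the S + G2 libraries were the lowest but for 1 CK + G2 library. ONT.17081 had 9.57, 6.19 and 14.3 CPM in S and 1.07, 0.528 and 2.59 CPM in S + G2 (-2.23, adjusted p = 0.482). ONT.17807 had 4.06, 3.09 and 3.56 CPM in S and 0.533, 0.264 and 0.518 CPM in S + G2 (-1.67, adjusted p = 0.476). ONT.5461 (values above) had a log2 fold change of 3.30 and ONT.10238 of 3.25, the latter from 0.255 to 0.870 CPM in S and 12.5, 2.64 and 63.4 CPM in S + G2 (adjusted p = 0.741).

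G2 without salt called 1 ONT locus, ONT.9270 (above), where 0.0396% of all rows were called in CK + G2 vs. CK. At the looser criterion 72 loci were lower (5.69%, background 2.82%) and 60 higher (4.74%, background 2.13%). ONT.3568, on Scaffold00078 between Glyur000078s00005433 and Glyur000078s00005440, had 12.6, 9.14 and 3.03 CPM in CK and 0, 0.789 and 0 CPM in CK + G2 (log2 fold change -2.76, adjusted p = 0.126), and in S it ran from 0.255 to 18.3 CPM. ONT.5478, on Scaffold00141 between Glyur000141s00009810 and Glyur000141s00009813, had 4.92, 2.89 and 3.36 CPM in CK + G2 and 0 to 1.53 CPM in the other 9 libraries. Its log2 fold change was 1.80 against CK (adjusted p = 0.204), and S + G2 lay under CK + G2 by -1.90 (adjusted p = 0.201). ONT.11075 had 0.772, 8.58 and 6.96 CPM in CK and 0, 0.263 and 0.561 CPM in CK + G2 (-2.03, adjusted p = 0.497). Over all 12 libraries G2 called 0 ONT loci in limma, where 0.00440% of all rows passed, with 110 at an unadjusted p under 0.05 (8.69%, all rows 5.58%). edgeR made 0 calls and DESeq2 made 3 (0.237%, all rows 0.114%).

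The comparisons S vs. CK and CK + G2 vs. CK share the CK libraries, so their values are only set side by side. Of the 29 loci lower in S, 21 had their highest treatment mean in CK and 25 had a negative log2 fold change in CK + G2 vs. CK. The median of this change was -0.49, against 0.02 over all rows tested. An unadjusted p under 0.05 was found there for 11 of the 29 (all rows 6.01%). The 29 were chosen for lying lower in S than in CK. A high CK mean and a negative change against CK follow at least in part from that choice. ONT.1691 (-4.44 and -4.00), ONT.15819 (-2.92 and -2.45) and ONT.10716 (-1.95 and -1.52) are examples of such a profile. ONT.8065 (-1.79 and 0.11) and ONT.17047 (-1.51 and 0.32) had no lower value with G2 alone. The call of ONT.17047 in S vs. CK (adjusted p = 0.0170, limma) was lost without CK replicate 1 or 3 or S replicate 2 or 3 (adjusted p up to 0.0602).

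Some loci had no read in all 3 libraries of a treatment and at least 1 CPM in all 3 of another. The folds given for such loci, here and above, set the mean of the 3 libraries with reads against the floor. Single libraries can therefore lie closer to the floor than the fold says. Besides ONT.16117, ONT.17317 and ONT.16859, already given, ONT.16715 had no read in CK and 10.7, 1.58 and 1.04 CPM in S + G2. Its S + G2 mean of 4.42 CPM was at least 5.28-fold higher against the floor of 3 reads per library (0.837 CPM on average in CK). Most of that mean came from the library at 10.7 CPM. ONT.4486 (Scaffold00106) had 1.03, 3.32 and 7.57 CPM in CK and no read in CK + G2, at least 4.86-fold lower. ONT.16851 (Scaffold02926) had 1.29, 4.15 and 2.72 CPM in CK and no read in CK + G2, at least 3.33-fold lower. ONT.17807 had no read in CK + G2, at least 4.37-fold lower than in S, and ONT.5336 (Scaffold00136) had no read in CK or S and 1.86, 1.58 and 4.66 CPM in S + G2, at least 3.27-fold higher than in S. These loci were picked for their zeros. ONT.4486 and ONT.16851 did not pass the adjusted threshold in CK + G2 vs. CK, nor did ONT.5336 in S + G2 vs. S. The contrasts given for ONT.16715 (S + G2 and CK) and ONT.17807 (CK + G2 and S) were not tested.

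**Figure D5:**
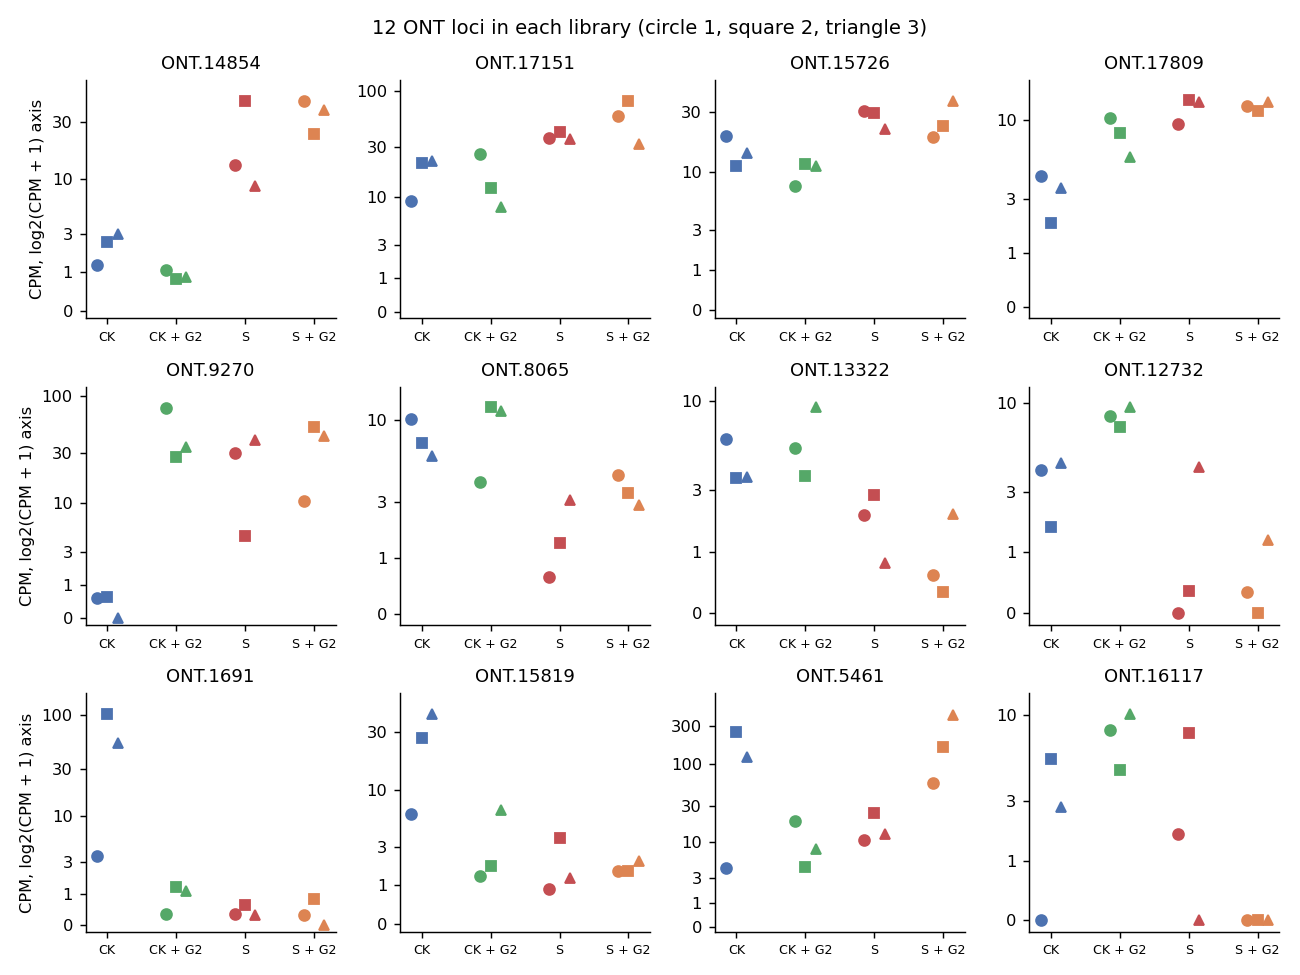
CPM of 12 ONT loci in each library by treatment, on a log2(CPM + 1) axis with ticks in CPM that starts near 0 and differs in range between panels; the circle, square and triangle are replicates 1, 2 and 3. ONT.14854, ONT.17151 and ONT.13322 separate the 6 salt libraries from the other 6, while in ONT.1691, ONT.15819 and ONT.5461 CK replicate 1 lies well under CK replicates 2 and 3.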

How the data were processed

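The labels name ONT flow cells on PromethION for the 12 cDNA libraries, while the methods of the study name another platform. The authors filtered the reads by length, quality and ribosomal origin, polished the full-length ones, and deposited CPM per gene and per isoform, that is, reads on the feature per 1000000 mapped reads. The submitters' processing notes name minimap2, without a version, and the genome build is not stated in the sources used here.

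The reads behind each value were recovered from the CPM of a single read, and all values above 0 (100%) came out whole within 0.01. A count test was foreseen for a table of counts only, so limma 3.58.1 (trend, R 4.3.3) was fitted to log2(CPM + 1) for all rows that reached 1 CPM in 3 or more libraries, with Benjamini-Hochberg adjustment over 22751 rows. Fold changes on this scale understate the change of low loci. Pairwise fits used 6 libraries, and salt, G2 and their interaction used all 12. Single values per library were compared by two-sided exact permutation tests. The looser criterion (unadjusted p under 0.05, fold change of at least 1.5) is a reading of the study's methods made here. edgeR 4.0.16 and DESeq2 1.42.0 on the recovered reads, TMM scaling, other filters and pseudocounts of 0.5 and 0.1, a block for the replicate number and the omission of each library in turn were alternatives. The fits were tested on simulated data.

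The ONT loci, the lists and the tests were chosen with earlier results of these data known. Loci are named if they are among the 5 most abundant, called in a pairwise comparison (at most 10 per direction), among the 8 (S vs. CK) or 4 (others) with the largest fold per direction at the looser criterion without overlap and with at least 1 CPM on average, among the 4 with the largest fold called over 12 libraries, absent from 1 treatment and present in another (up to 6), or among the 3 with the most isoforms. ONT.17047, ONT.2250, ONT.13151, ONT.16969, ONT.16133, ONT.13311, ONT.10667 and ONT.15760 and the isoforms described were named after their values were seen. Floors of 3 reads and chi-square values cover counting error only, since PCR reads without molecular identifiers are not independent molecules. Figures were drawn with matplotlib.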

Additional observations from a re-analysis of the deposited data

Results flagged for a closer look

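ONT.12732 had 4.33 CPM in S replicate 3, which stood apart from the other 5 salt libraries at 0 to 1.29 CPM. It was the only one of 22 groups of 6 libraries looked at in which a library lay that far from the rest, and chance gives about 1 such group in 20.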

How the results depend on the processing

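No direction of a named locus turned in any alternative. Leaving out ONT.2250, whose calls are not counted here, the loci in the text had 28 calls at an adjusted p under 0.05. Of these 28 calls, 5 held in every alternative that gave a value (ONT.14854 in S + G2 vs. CK + G2 and over 12 libraries, ONT.15726, ONT.17809 and ONT.17047 over 12 libraries). The other 23 were lost with at least 1 library left out, among them ONT.15163 and ONT.16859 over 12 libraries (adjusted p = 0.0280 and 0.0410, up to 0.0754 and 0.0805). The counts of ONT loci at an adjusted p under 0.05 depended on the tool. With edgeR they were 17 for S vs. CK, 1 for S + G2 vs. CK + G2, 0 for CK + G2 vs. CK and 20 for salt over 12 libraries, and with DESeq2 they were 57, 11, 11 and 65, with 5 for S + G2 vs. S, 3 for G2 over 12 libraries and 6 for the interaction. DESeq2 called 4.51%, 0.873%, 0.870%, 5.14%, 0.397%, 0.237% and 0.475% of ONT loci in this order, and 3.01%, 0.550%, 0.444%, 4.01%, 0.145%, 0.114% and 0.224% of all rows. Over all rows edgeR called 343 of 18408, 3 of 18541, 0 of 18599 and 367 of 19572, in the order of its counts. edgeR's own filter left fewer loci to test. TMM scaling gave 19, 1 and 20 (S vs. CK, S + G2 vs. CK + G2, salt over 12 libraries; for S vs. CK 1.501%, all rows 1.49%), a pseudocount of 0.1 gave 20 for S vs. CK (1.58%, all rows 1.57%), a fit of all 12 libraries gave 15 (1.18%, all rows 0.971%) and 1 for S vs. CK and S + G2 vs. CK + G2, and a mean of at least 10 reads gave 1 for S + G2 vs. CK + G2. Among all rows, S + G2 vs. CK + G2 had 3 calls with TMM scaling, 5 with all 12 libraries and 2 with a mean of at least 10 reads. At the looser criterion edgeR gave 139 of 861 loci in S vs. CK and 93 of 866 in S + G2 vs. CK + G2. It gave 50 of 833 in S + G2 vs. S and 79 of 885 in CK + G2 vs. CK. Over all rows edgeR gave 1986 of 18408, 1289 of 18541, 702 of 18380 and 873 of 18599 in this order. A mean of at least 10 reads gave 54 of 843 loci for S + G2 vs. S, where 611 of 18314 rows passed. Apart from what the construction shows, the causes were not tested.

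With single libraries left out, the calls ranged from 1 to 30 in S vs. CK, 1 to 8 in S + G2 vs. CK + G2, 0 to 3 in S + G2 vs. S, 0 to 6 in CK + G2 vs. CK, 15 to 56 for salt, 0 to 3 for G2 and 0 to 3 for the interaction. Among all 22751 rows the calls ranged from 151 to 319, 2 to 30, 0 to 10, 0 to 24, 172 to 1057, 0 to 6 and 0 to 10 in the same order. At the looser criterion the ONT loci ranged from 168 to 250, 105 to 207, 70 to 150 and 97 to 185 in the 4 pairwise comparisons in that order. All rows at this criterion ranged from 2166 to 2516, 1260 to 2648, 723 to 1520 and 796 to 1570. The salt difference in loci detected ranged from -20.3 to -13.3 and that in the share of reads from -0.29 to -0.23 points.

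Deviations from the treatment mean, over all rows tested, correlated at -0.20 to 0.11 between same-numbered libraries of different treatments, which share only a number. With the replicate number as a block there were 29 calls in S vs. CK, 30 for salt and 1 in S + G2 vs. CK + G2, where 335, 380 and 2 of all 22751 rows were called. The difference of -16.7 loci detected had an exact permutation p of 0.0556 with this block.

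With 3 libraries a treatment and loci at a few reads, many differences were not detectable at this depth.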
